A study of Mus musculus with 8 samples.

Results

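The cells described here are 477 mural cells of the mouse cortex with high Ifitm1 or Col3a1 RNA, taken from 1430 Vtn-positive mural cells (33.4%) and from 50254 cells kept in all (0.949%). They are called Ifitm1-high mural cells below. A barcode was kept with at least 500 genes and under 15% mitochondrial UMIs (unique molecular identifiers, each standing for 1 captured RNA molecule), and UMIs were scaled to 10000 per cell (CP10k). A member had Vtn at 30 CP10k or more and the sum of Col3a1 and Ifitm1 at 10 CP10k or more. It also had to stay under 40 CP10k for the smooth muscle genes Acta2, Tagln, Myh11 and Myl9 together. The limit was 10 CP10k for the fibroblast genes Dcn and Lum, 20 CP10k for the endothelial genes Cldn5, Flt1 and Pecam1, and 20 CP10k for the microglial genes C1qa, C1qb and Ctss. The rule used measured values, so the levels of these genes, and of the listed markers Il34 and Cxcl1, are descriptions with no test.

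Single-cell RNA-seq was done on cortex of 8-week-old mice perfused with PBS, in a pair of experiments on laminins of the vascular basement membrane. The Lama4 experiment compared Lama4-/- mice, which lack the laminin alpha 4 chain in every cell, with WT mice. The Lama5 experiment compared Tek-Cre:Lama5-/- mice, in which Cre is driven by the Tek promoter of endothelial and blood cells and the laminin alpha 5 gene of mural cells is not the target, with their own WT mice. Brains of 3 mice were pooled per group and each group has 2 samples, so the libraries of a group share a pool and p-values measure only the spread between libraries. The 2 deposited Lama4-/- files held identical values and were counted as 1 library, which leaves 7 libraries of 35479306 to 48314458 UMIs. The libraries gave 55 to 83 members each, with 147493 to 282354 UMIs summed over them, and no member barcode was shared between libraries (0 shared). The comparison cells were 953 capillary pericytes, which passed the same limits with Col3a1 and Ifitm1 together under 10 CP10k, and 2695 smooth muscle cells.

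Mural cells wrap the outside of blood vessels: contractile smooth muscle cells around arterioles and arteries, and pericytes around capillaries, where they lie inside the basement membrane that they share with endothelial cells. Vtn (vitronectin) is among the most abundant pericyte transcripts in brain. Ifitm1 belongs to the interferon-induced transmembrane proteins, a family known for blocking the entry of enveloped viruses, and Col3a1 is a fibrillar collagen of loose connective tissue. The rule therefore picks cells that resemble capillary pericytes in their Vtn and differ in an interferon-inducible gene or a connective-tissue collagen.

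Ifitm1, Ifitm2 and Ifitm3 lie close together on chromosome 7, and their start regions are shown because the first defines the members while the others were free to follow it or not. The windows run from 250 bases before to 50 bases after the RefSeq gene start (build GRCm38.p6), 5′ to 3′ on the gene's strand. Capitals mark matches to the core of the interferon-stimulated response element (GAAA, then any 2 bases, then GAAA), searched on both strands.
Ifitm1, chr7:140967826-140968125, plus strand: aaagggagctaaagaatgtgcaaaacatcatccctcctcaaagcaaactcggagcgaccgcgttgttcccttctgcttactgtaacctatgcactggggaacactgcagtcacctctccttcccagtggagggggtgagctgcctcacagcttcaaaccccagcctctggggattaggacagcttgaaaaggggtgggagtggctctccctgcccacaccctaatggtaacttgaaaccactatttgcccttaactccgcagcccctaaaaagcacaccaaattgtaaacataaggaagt
Ifitm2, chr7:140955912-140956211, minus strand: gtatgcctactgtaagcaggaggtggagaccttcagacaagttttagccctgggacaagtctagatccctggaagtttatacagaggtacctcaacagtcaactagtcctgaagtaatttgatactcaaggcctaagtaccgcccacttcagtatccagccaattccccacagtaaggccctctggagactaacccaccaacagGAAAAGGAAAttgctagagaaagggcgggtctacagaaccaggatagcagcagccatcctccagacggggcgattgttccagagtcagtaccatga
Ifitm3, chr7:141010695-141010994, minus strand: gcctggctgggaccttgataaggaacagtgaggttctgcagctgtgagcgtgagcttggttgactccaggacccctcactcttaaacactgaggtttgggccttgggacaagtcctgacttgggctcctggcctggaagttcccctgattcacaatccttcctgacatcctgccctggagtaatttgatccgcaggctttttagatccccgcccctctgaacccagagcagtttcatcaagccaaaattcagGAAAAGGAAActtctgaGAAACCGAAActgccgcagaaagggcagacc
The motif was found 0 times in the Ifitm1 window, once in the Ifitm2 window (starting at position -46 from the gene start) and at 2 places in the Ifitm3 window (positions 2 and 19). Of 32851 such windows in the RefSeq table, 1131 (3.44%) held it. A match of letters is not a binding site, and no match says only that these letters are not in this window.

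Most members were chosen by Ifitm1. Ifitm1 alone reached 10 CP10k in 450 of the 477 members, Col3a1 alone in 12, and 23 passed only by the sum. UMIs of both genes were present in 111 members (23.3%), of Ifitm1 only in 364 (76.3%) and of Col3a1 only in 2. The count behind the rule was small: the sum rested on 1 UMI in 14 members, on 2 UMIs in 42 and on at least 3 in 421, with a median of 5. The rule value ran without a gap across the threshold, from a median of 16.4 CP10k in members down to a lowest value of 10.02, just above the highest pericyte at 9.96. Between 10 and 12 CP10k lay 88 members, and between 8 and 10 CP10k lay 135 pericytes. Among all Vtn mural cells, 415 had no Ifitm1 UMI, 211 had up to 5 CP10k, 354 had 5 to 10, 306 had 10 to 20, and 144 had 20 or more. The members are thus the upper range of a graded Ifitm1 level and not a separate cluster in this measure.

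**Figure D1:**
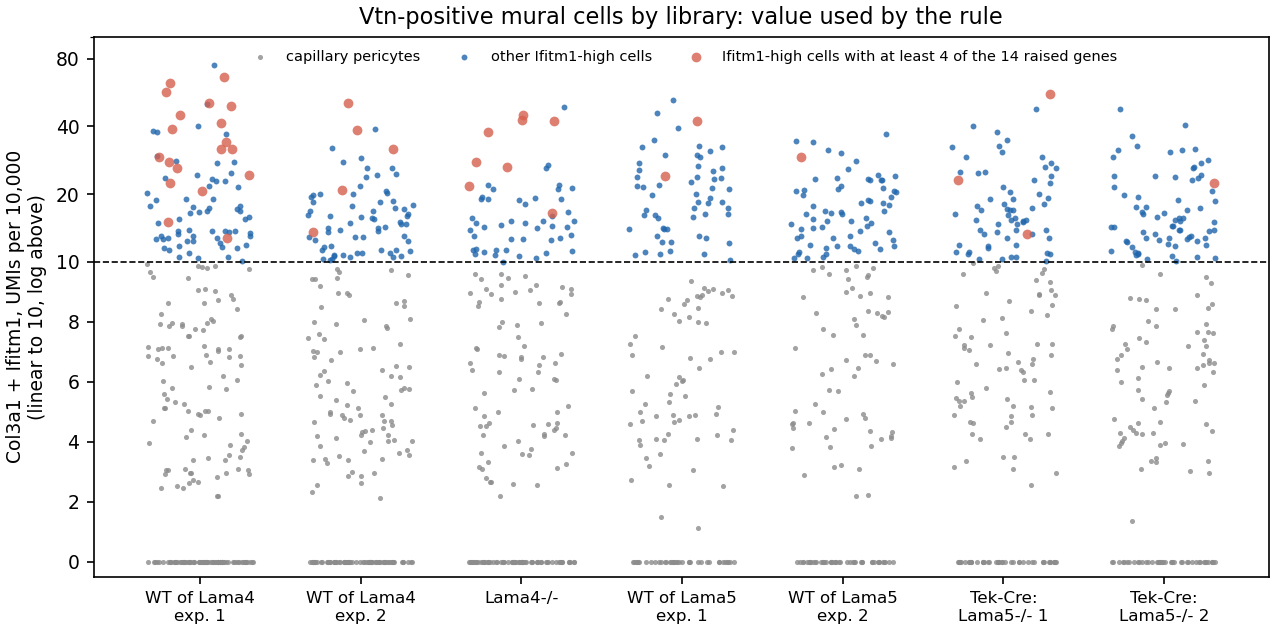
Sum of Col3a1 and Ifitm1 in each Vtn mural cell (UMIs per 10000, linear to 10 and logarithmic above) by library, 1 point a cell. The dashed line is the threshold of 10; grey points are capillary pericytes, blue points members and red points the 39 members that carry at least 4 of the 14 raised genes described below.

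Every member carries Ifitm1 or Col3a1 by the rule, so the shares of members with these genes were largely set by the choice. Ifitm1 was found in nearly all members and Col3a1 in a minority. Ifitm1 had a UMI in 99.6% of members and 56.7% of capillary pericytes, against 18.9% of smooth muscle cells, 1.86% of endothelial cells (median 3687 UMIs per cell) and 0.389% of oligodendrocytes (median 6461), which should lack it. The median depth was 2711 UMIs in members and 2288 in pericytes, so the share in pericytes was far above that of these deeper cell types. Col3a1 had a UMI in 23.7% of members, 5.67% of pericytes and 14.7% of smooth muscle cells, against 88.6% of the 35 fibroblasts and 0.377% of endothelial cells. Il34, a ligand of the CSF1 receptor on microglia, had a UMI in 54.3% of members and 44.6% of pericytes. Cxcl1, a chemokine that attracts neutrophils, had a UMI in 5.45% of members and 1.99% of pericytes, and the endothelial share was 7.41%.

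Summed per library and scaled to a total of 1000000 UMIs (CPM), Ifitm1 in members was 2033 and 1651 in WT of the Lama4 experiment, 1705 in Lama4-/-, 2048 and 1687 in WT of the Lama5 experiment, and 1839 and 1709 in Tek-Cre:Lama5-/-. Pericytes held 337 to 438 CPM, as the rule requires. Col3a1 in members was 230 and 161 CPM in WT of the Lama4 experiment, 247 in Lama4-/-, 98.7 and 82.1 in WT of the Lama5 experiment, and 87.0 and 61.0 in Tek-Cre:Lama5-/-. The Lama4 experiment thus held all 3 of the highest Col3a1 levels, while Ifitm1 showed no such order. Vtn in members was 19706 to 21281 CPM in the Lama4 experiment and 11224 to 13178 CPM in the Lama5 experiment, with a like split in pericytes (21890 to 23498 and 11323 to 13398 CPM).

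Against capillary pericytes, Ifitm1-high cells had higher Ifitm3, the inhibitor of matrix proteases Timp3 and the matrix protein Sparc, and lower levels of single astrocyte and globin genes. Much of the Timp3 difference lay in 39 of the 477 cells, described below. Of 5855 genes tested by edgeR's quasi-likelihood test on counts summed per library, with the library as a block and Benjamini-Hochberg adjustment, 77 were called at an adjusted p under 0.05 (1.32%), 50 higher (0.854%) and 27 lower (0.461%) in Ifitm1-high cells. Of these, 17 higher and 13 lower genes reached 50 CPM and had the same direction in all 7 libraries.

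Timp3, which binds extracellular matrix and inhibits metalloproteases, was higher in members of every library. In members Timp3 was 698, 399, 679, 568, 422, 528 and 515 CPM, in the order of libraries used above, and in pericytes 185, 230, 229, 256, 307, 355 and 475 CPM. The ranges overlapped across libraries, and within libraries the log2 difference was 0.95 (SE 0.142, edgeR adjusted p = 4.47e-05). Without the 39 cells described below, the Timp3 difference was 0.10 and not called, and Steap4, Rap2a and Slfn5, named next, were not called either. Sparc, a collagen-binding matrix protein of basement membranes, was 1471 to 2387 CPM in members and 1101 to 1406 CPM in pericytes, with no overlap (log2 difference 0.53, SE 0.0946, edgeR adjusted p = 6.5e-04). Steap4, a metalloreductase, was 27.1 to 241 CPM in members and 23.5 to 108 CPM in pericytes, higher by 0.97 in log2. Rap2a, a small GTPase, rose by 1.06, Slfn5, a Schlafen family gene induced by interferon, by 1.00, and Fxyd1 (phospholemman), a regulator of the sodium pump, by 0.62 in log2.

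The rule used Ifitm1, and the other 2 genes of its family were measured beside it. Ifitm3 was 1247, 1074, 1268, 722, 821, 832 and 746 CPM in members and 689, 616, 699, 592, 553, 570 and 635 CPM in pericytes. Every member value was above every pericyte value, and the log2 difference was 0.60 (SE 0.0952, edgeR adjusted p = 1.27e-04). Ifitm2 was 747, 634, 747, 568, 515, 553 and 529 CPM in members and 420 to 537 CPM in pericytes, so the ranges overlapped, and its log2 difference of 0.30 did not pass (edgeR adjusted p = 0.111). Whether Ifitm2 and Ifitm3 differed in this was not tested. The 3 genes are similar in sequence, and whether reads were split between them was not tested. Of the 6 measured genes of the interferon-stimulated list, Ifitm3 was the 1 called. The other members of that list with high counts were Ifi27, with a log2 difference of 0.26, and Bst2, with 0.25, neither of them called. By Ifitm1 level of the cell, Ifitm3 was 550 CPM in mural cells with no Ifitm1 UMI, 631 CPM up to 5 CP10k, 734 CPM from 5 to 10, 891 CPM from 10 to 20 and 1245 CPM at 20 or more. Ifitm3 thus stood higher in each higher band, as did Sparc at 1145, 1289, 1458, 1686 and 2500 CPM (given as a description, since all bands share the same libraries).

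**Figure D2:**
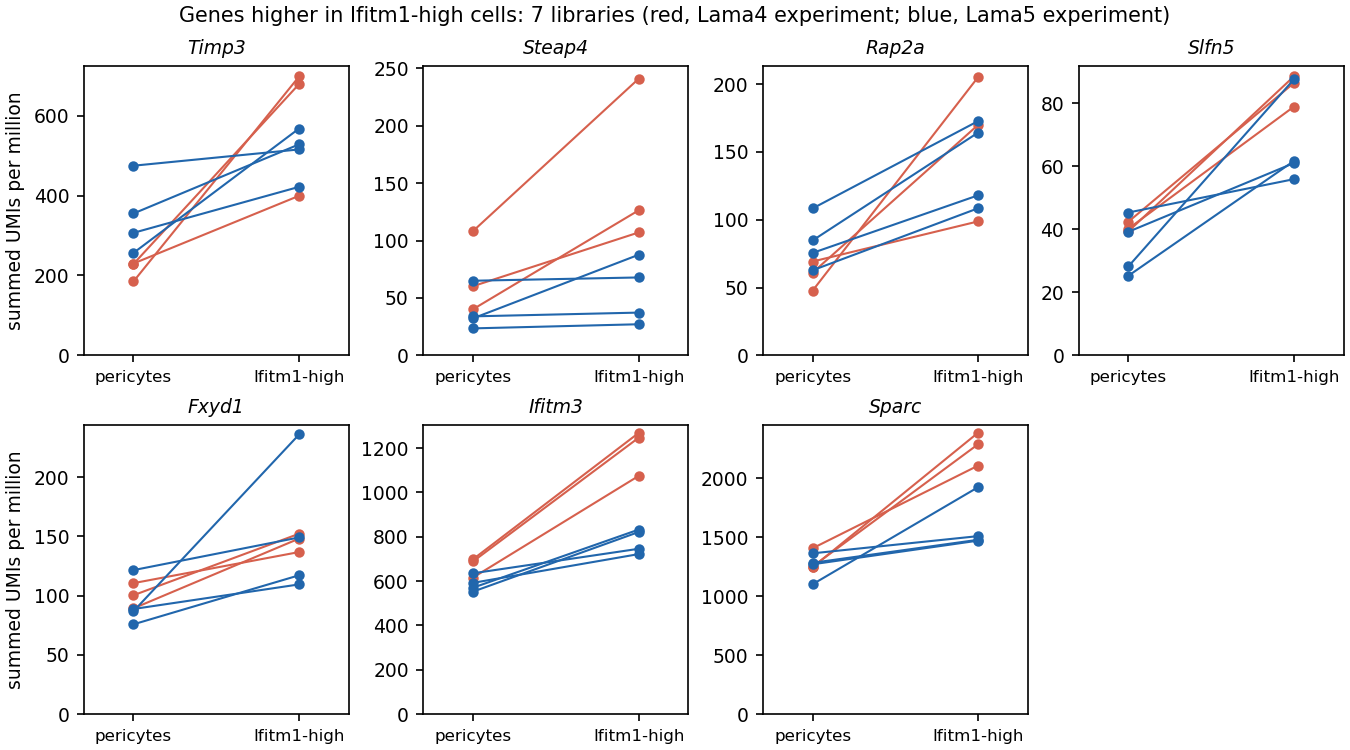
The 7 genes plotted were higher in Ifitm1-high cells than in capillary pericytes of the same library (CPM, each panel from 0), shown with 1 line per library, red for the Lama4 experiment and blue for the Lama5 experiment. All lines rise, which was set by the choice, since genes were named only if called with the same direction in every library. For Ifitm3 the 3 red lines end highest, at 1074 to 1268 CPM. Timp3, Steap4, Rap2a and Slfn5 were not called once cells with at least 4 of the 14 raised genes, described below, were left out.

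No gene of pericyte identity was called in either direction among 20 tested, with a median log2 difference of -0.09 beside -0.01 over all genes tested. By edgeR 7 of the 20 had an unadjusted p under 0.05, beside 756 of all 5855 genes, and DESeq2 called 0. At the background of 1.32%, 0 calls among 20 says nothing particular of this list. Rgs5, a regulator of G-protein signalling, differed by 0.12 and Pdgfrb, the receptor that recruits pericytes, by -0.10. Among basement membrane genes 1 of 12 was called (Sparc, higher), and Lama4 differed by 0.09 (edgeR adjusted p = 0.868). None of 9 interstitial matrix genes was called by edgeR (2 at an unadjusted p under 0.05) or DESeq2, with 0.19 for Col1a2 and 0.24 for Mgp, an inhibitor of calcification. None of 11 laminin and matrix receptors, 18 TGF-beta and BMP genes, 8 Notch genes or 11 vasoactive receptors and channels was called by edgeR (2, 2, 2 and 0 at an unadjusted p under 0.05) or by DESeq2. Of 10 contractile genes tested, Crip1 (0.52) and Tpm1 (0.47), a tropomyosin, were higher. In the list of PDGF and angiopoietin signalling 3 of 7 were higher: Angpt2 (2.17) and Angpt1 (2.14), both ligands of the endothelial receptor Tek, and Igfbp4 (1.92), which binds insulin-like growth factors. Of 4 chemokine genes, Ccl19 (4.97) and Ccl2 (3.00), which attract lymphocytes and monocytes, were higher by edgeR and not called by DESeq2. Without the first WT library of the Lama4 experiment Ccl2 was not called (1.46), and 1 cell held 141 of its 206 member UMIs.

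Among the lower genes were some typical of other cell types. Slc1a2, the main glutamate transporter of astrocytes, was 5.26 to 112 CPM in members and 60.5 to 506 CPM in pericytes and fell by 2.05 on the log2 scale (edgeR adjusted p = 5.59e-06). Of 5 astrocyte markers tested 3 were lower (Slc1a2, Gpr37l1 and Aldoc), and of 4 erythrocyte genes 3 globins were lower (Hbb-bt, Hba-a2 and Hba-a1). The summed astrocyte markers were 1024 to 1796 CPM in members and 1224 to 1957 CPM in pericytes, and all 10 were above 0 in both. The summed erythrocyte genes were 31.6 to 695 CPM in members and 79.3 to 18444 CPM in pericytes, and Alas2 was at 0 in members. The astrocyte sum was higher in members than in pericytes of the same library in both WT libraries of the Lama5 experiment (1487 and 1437 CPM, 1572 and 1452 CPM) and in the first Tek-Cre:Lama5-/- library (1360 and 1224 CPM). The 2 pericyte libraries with high red-cell sums were Lama4-/- (18444 CPM) and the second Tek-Cre:Lama5-/- library (14358 CPM), and the other 5 held 79.3 to 661 CPM. DESeq2 called 0 genes of either list, where edgeR had 3 and 4 at an unadjusted p under 0.05, and with the doublet gate Slc1a2 was not called. The part of such transcripts in the lower calls was not tested. On the log2 scale Spp1 (osteopontin) fell by 0.97, the ubiquitin ligase Birc6 fell by 0.86, the nuclear RNA Neat1 fell by 0.55 and the transcription repressor Zbtb20 fell by 0.30 in Ifitm1-high cells.

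The number of calls changed with single libraries and with depth. Within the Lama4 experiment 136 genes were called (100 higher, 36 lower) and within the Lama5 experiment 16 (4 higher, 12 lower), where Timp3 (0.55) and Gadd45a (1.10) were called and Ifitm3 (0.40) and Sparc (0.33) were not. Leaving out the first WT library of the Lama4 experiment left 41, leaving out the Lama4-/- library left 44, thinning each cell to 2000 UMIs left 19, and DESeq2 called 15, with Timp3 and Ifitm3 but not Sparc among them.

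The largest fold changes came from few cells. Of the called genes, 14 had a log2 difference of at least 1.5: Ccl19, Myc, Tmem176a, Ccl2, Anxa1, Tmem176b, Pmp22, Lmcd1, Angpt2, Angpt1, Irf1, Tinagl1, Igfbp4 and Rgs16. These 14 genes, and the count of 4 used next, were chosen after their values were seen, so what follows is a description with no test. No UMI of any of the 14 was found in 306 of the 477 members, and 104 carried 1 of them. At least 4 were carried by 39 members (8.18%, exact 95% binomial interval 5.88 to 11) and by 9 of 953 pericytes (0.944%). The 39 cells were somewhat deeper, with a median of 3558 UMIs against 2657 in the other 438 members. After thinning to 2000 UMIs, which leaves out shallower cells, 30 of 356 members (8.43%) and 5 of 597 pericytes (0.838%) carried 4 or more. The 14 genes were chosen as higher in these members than in these pericytes. A larger share in members was therefore set by the choice, also after thinning.

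These 39 cells supplied most UMIs of the genes used to pick them, as they must, and many of other genes. Pmp22, a myelin and membrane protein also made by fibroblasts and smooth muscle, had 89.3% of its member UMIs in them, and Ccl19 had all of its 35 (100%). Of the 206 Ccl2 UMIs in members, 141 (68.4%) came from 1 cell. Among genes not used to pick the cells, 51.8% of Timp3, 26.9% of Sparc and 24.7% of Ifitm3 UMIs lay in the 39 cells. For comparison, the 39 cells were 8.18% of members, and were deeper than the others. Malat1, an abundant RNA found in every member, had 10.49% of its member UMIs in them.

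Most of the 39 cells carried Col3a1, unlike most other members. Col3a1 had a UMI in 32 of 39 (82.1%, interval 66.5 to 92.5) and in 81 of the other 438 members (18.5%, 15 to 22.5), with 637 and 87.4 CPM. Cells are pooled over libraries here and in the next paragraph, and 19 of the 39 came from 1 library. The intervals therefore cover counting error only and are no test. Col3a1 is also a gene of the rule and was higher in members of the Lama4 experiment, which held most of the 39. Il34 was found in 35 of 39 and 224 of 438 (727 and 298 CPM), and Cxcl1 in 16 of 39 and 10 of 438. Timp3 was found in every one of the 39 and in 178 of 438 (2511 and 299 CPM), and Steap4 in 26 and 57 (496 and 64.3 CPM). Lepr, the leptin receptor, was found in 16 of 39 and in 1 of 438. Agtr1a, the angiotensin receptor, was found in 10 of 39 and 2 of 438, and Adra2a, an alpha-2 adrenoceptor, in 14 of 39 and 11 of 438. Genes among those with the highest ratio included Junb at 4571 and 487 CPM, Zfp36, which destabilises cytokine RNA, at 2820 and 208 CPM, and the metallothionein Mt1 at 2324 and 79.1 CPM. Apoe, the lipid carrier, was 3264 and 345 CPM. Cxcl1, Lepr, Agtr1a, Adra2a and Apoe were also picked for a high ratio to other members. Their gaps, and those of Junb, Zfp36 and Mt1, are therefore selected extremes.

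Several genes found in capillary pericytes were low or missing in the 39 cells. Atp13a5, a transporter that marks brain pericytes, had a UMI in 3 of 39 (7.69%, interval 1.62 to 20.9) and in 401 of 438 other members (91.6%, 88.5 to 94.0), a level 57.4-fold lower. Gatm (creatine synthesis), the calcium store protein Casq2, Pid1, Perp, the scavenger receptor Ackr3, Ggt1 and the guidance cue Ntn1 had no UMI in the 39 cells. Against the 3 counts that a count of 0 allows over the 39 cells together, these were at least 30.6-fold, 27.4-fold, 23.9-fold, 22.8-fold, 22.5-fold, 17.0-fold and 10.6-fold lower. Car4, a carbonic anhydrase, was 24.7-fold lower and the potassium channel subunit Abcc9 was 245 CPM against 1306 CPM. Atp13a5, a listed pericyte marker, was among the lowest ratios to other members. Car4 and the genes without a UMI were picked for such lowest ratios, so their folds are selected extremes. Some are not particular to pericytes: Gatm was 307 CPM and Car4 589 CPM in endothelial cells. Perp was 278 CPM and Ackr3 240 CPM in smooth muscle cells. The proteoglycan Cspg4 was found in 10 of 39 and 330 of 438 (96.6 and 673 CPM), and the peptidase Anpep in 9 of 39 and 154 of 438. Other mural genes were found in most of the 39 cells: Rgs5 in 39 of 39 and 436 of 438 (9682 and 8731 CPM), Pdgfrb in 37 of 39 and 425 of 438 (1255 and 1909 CPM), and Kcnj8, the channel partner of Abcc9, in 32 of 39 and 374 of 438 (785 and 1325 CPM). Notch3 was found in 38 of 39 and in 335 of 438 (824 and 728 CPM).

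Other cell classes held some of the same genes. Pdgfra, which marks fibroblasts and which the rule did not use, had no UMI in the 39 cells against 468 CPM in the 35 fibroblasts, and Col1a1 was 12.9 against 868 CPM. Dcn (129 against 5024 CPM) and Lum (no UMI against 1521 CPM) chose the fibroblasts and were limited in members, so their gap was set by the choice. Acta2 and Tagln, limited by the rule, were 232 and 283 CPM against 12376 and 9024 CPM in smooth muscle cells. Cnn1, a smooth muscle gene that the rule did not use, was 6.44 CPM against 187 CPM. Des, also outside the rule, was 521 CPM in the 39 cells, 157 CPM in other members and 790 CPM in smooth muscle cells. Col1a2, outside the rule too, was 328 CPM, with 167 CPM in other members and 1029 CPM in fibroblasts. Tmem176a and Tmem176b, used to pick the cells, were 367 and 431 CPM, against 350 and 455 CPM in fibroblasts. Pmp22 was 592 CPM in the 39 cells, 141 CPM in smooth muscle cells and 162 CPM in fibroblasts, and Igfbp4 was 167, 130 and 2623 CPM. Vtn was lower than in other members, at 7326 against 17604 CPM. The 39 cells were given no cell type name here.

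The 39 cells were unevenly spread over libraries. In WT of the Lama4 experiment they were 19 of 83 members (22.9%, interval 14.4 to 33.4) and 5 of 71 (7.04%), and in Lama4-/- 8 of 55 (14.5%). In WT of the Lama5 experiment they were 2 of 59 (3.39%) and 1 of 69 (1.45%), and in Tek-Cre:Lama5-/- 3 of 67 (4.48%) and 1 of 73 (1.37%). The 3 libraries of the Lama4 experiment thus had the 3 highest shares. Their members were also deeper, with medians of 3120 to 3223 UMIs against 1928 to 2719. After thinning to 2000 UMIs the shares were 19.4% and 8.06% in WT of the Lama4 experiment and 12.5% in Lama4-/-. They were 2.04% and 2.04% in WT of the Lama5 experiment and 7.14% and 0% in Tek-Cre:Lama5-/-. The part of the choice of the 14 genes in this order was not tested. Experiment, pool of mice and preparation cannot be told apart.

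**Figure D3:**
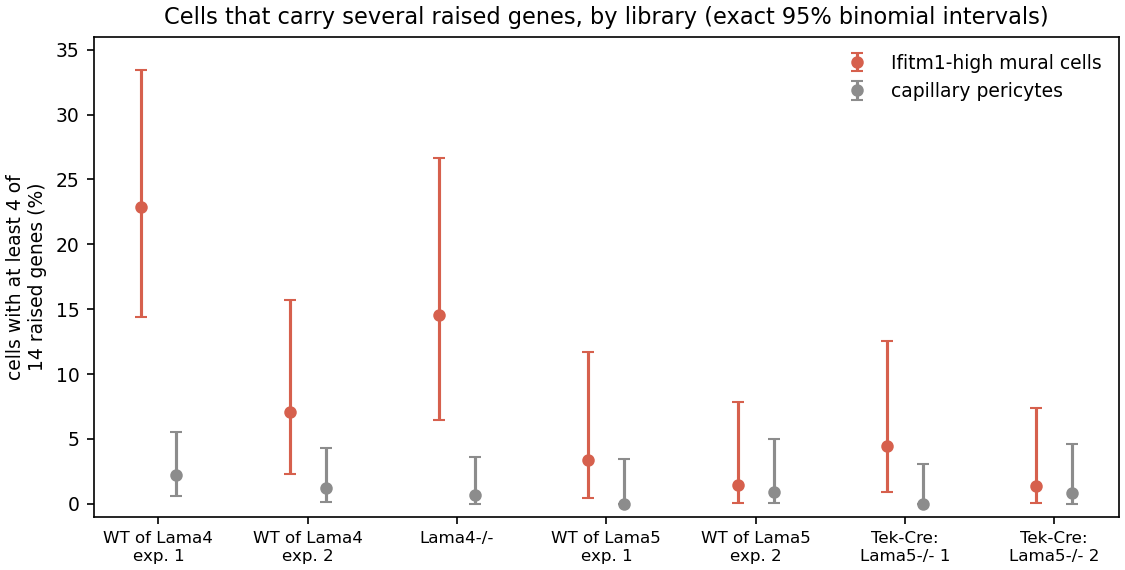
Percent of Ifitm1-high cells (red) and of capillary pericytes (grey) that carry at least 4 of the 14 raised genes, by library, with exact 95% binomial intervals, which cover counting error only. Members range from 1.37% to 22.9% and pericytes from 0 to 2.19%. The 14 genes were chosen as higher in members, so the gap between red and grey was set by the choice.

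With the 39 members and the 9 like pericytes left out, 37 genes were called in Ifitm1-high cells against pericytes (13 higher, 24 lower), and 25 of them were among the 77 above. Ifitm3 was still called at a log2 difference of 0.42, Sparc at 0.30, the trafficking subunit Cog7 at 0.56 and Gadd45a, a growth arrest gene, at 0.93. Timp3 (0.10), Steap4 (0.27), Rap2a (0.57) and Slfn5 (0.68) were not called. Rap2a and Slfn5 lost the call but kept larger differences than Sparc. Since the 39 cells were picked for genes called higher, leaving them out lowers the higher calls by construction.

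The difference between Ifitm1-high cells and pericytes was itself compared between experiments, a test chosen after the values were seen. It was smaller in the Lama5 experiment for 31 of 5855 genes (0.529%) and larger for 1 (0.0171%) by edgeR's quasi-likelihood test (0.547% in all). The immediate early gene Jun differed by -1.75 (SE 0.23, edgeR adjusted p = 1.84e-06), the BMP target Id3 by -2.19 (SE 0.25, edgeR adjusted p = 2.02e-07) and Ccl2 by -3.98 (SE 0.792, edgeR adjusted p = 0.00266) in log2. With the 39 members and 9 pericytes left out, edgeR called 0 genes, with 275 at an unadjusted p under 0.05. The 39 cells were picked for genes higher in members, Ccl2 among them, and most lay in the Lama4 experiment. Leaving them out therefore lowers this difference in part by construction, and their part in it was not tested. The summed 15 immediate early genes were 3441 to 11503 CPM in members and 2375 to 3353 CPM in pericytes of the Lama4 experiment. In the Lama5 experiment they were 17601 to 20015 CPM in members and 17770 to 20907 CPM in pericytes. Leaving out the first WT library of the Lama4 experiment left 13 calls, the second 54, and the second WT library of the Lama5 experiment 20.

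Smooth muscle cells were chosen for Acta2, Tagln, Myh11 and Myl9 together at 40 CP10k or more. Members were chosen for a sum under 40 CP10k and for Vtn. Lower contractile genes and higher pericyte genes in Ifitm1-high cells were therefore largely set by the choice. Of 10279 genes tested, edgeR called 3735 (36.3%), 1539 higher (15%) and 2196 lower (21.4%) in Ifitm1-high cells, so a call against smooth muscle is common. Of the pericyte identity list, 15 of 20 were higher, among them Abcc9 (5.73), Kcnj8 (5.13) and Atp13a5 (4.24) in log2, and Mcam was lower (-1.83). All 17 contractile genes tested were lower, among them Cnn1 (-6.78) and Sncg (-6.10), while Pln, the regulator of the calcium pump, fell by 9.61. Of the higher genes at 50 CPM or more, the largest differences were the acute phase proteins Saa2 (7.23) and Saa1 (6.49), Spp1 (7.08), the Wnt modulator Sfrp2 (7.04), the GABA transporter Slc6a13 (7.0) and Ggt1 (6.38). Tesc had no UMI in members and was at least 64.4-fold lower, and Sh3bgr was at least 46.3-fold lower, each against 3 counts over all members.

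Basement membrane genes separated these cells from smooth muscle by chain. Of 15 tested, 10 were higher, with Lamb1 at 3.79, Lama2 at 2.24, Nid2 (nidogen) at 1.80 and Lama4 at 1.69 in log2. The 3 lower ones were Lama5 by -5.31, Col18a1 by -2.50 and Lamb2 by -1.03. Of 14 interferon-stimulated genes, Ifitm3 (0.83), Ifitm2 (0.56) and Oasl2 were higher, and Isg15 (-2.06) and Bst2 (-0.98) were lower. Over all genes tested 36.3% were called (15% higher, 21.4% lower), so this count is near the background. Of 16 transport genes 13 were higher and 2 lower, and of 15 immediate early genes 11 were lower. All 8 oligodendrocyte markers tested were lower too, and their part in the comparison was not tested. Restricting smooth muscle cells to those with Vtn of at least 30 CP10k left 1475 calls (680 higher, 795 lower).

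The targeted gene was checked in members. Lama4 in members had 76 and 61 UMIs in WT of the Lama4 experiment (269 and 251 CPM) and 0 UMIs in Lama4-/-, which allows up to 19.4 CPM and 7.54% of WT. In the Lama5 experiment Lama4 was 173 and 164 CPM in WT and 168 and 136 CPM in Tek-Cre:Lama5-/-, a log2 difference of -0.12 (edgeR adjusted p = 0.962). Lama5 had 0 to 3 UMIs in members of any library, too few to check the Lama5 deletion in cells that the Cre does not target.

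In Tek-Cre:Lama5-/-, few genes were called in Ifitm1-high cells, among them Ttr, Hbb-bs and Gm42418. Of 3035 genes tested, edgeR called 14 (0.461%), 10 higher (0.329%) and 4 lower (0.132%). No gene of pericyte identity (0 of 20), basement membrane (0 of 11) or laminin and matrix receptors (0 of 9) was called by edgeR, where 4, 0 and 2 had an unadjusted p under 0.05 beside 262 of all 3035, or by DESeq2. With so few calls among all genes, 0 in a list of this size is near the background. Spp1 was 211 and 441 CPM in Tek-Cre:Lama5-/- and 111 and 32.9 CPM in WT (log2 difference 2.22, edgeR adjusted p = 1.45e-04). The Spp1 difference was 1.57 without the second WT library and 3.30 without the first, after thinning it was 0.014 and not called, and 1 cell held 49 of the 185 Spp1 UMIs of all members. Dbp, a clock output gene, was 124 and 129 CPM against 30.8 and 38.3 CPM (1.86), and Hdgf, a growth factor, 230 and 244 CPM against 86.4 and 104 CPM (1.32). Nr4a1, an immediate early nuclear receptor, was 354 and 332 CPM against 173 and 181 CPM (0.98). Casq2 was 385 and 305 CPM against 574 and 652 CPM (-0.80). Of 15 immediate early genes 2 were higher (Nr4a1 and Fosb) and 2 lower (Jund and Jun), and of 10 heat shock genes Hsp90aa1 was higher. DESeq2 called 4 of the 14 (Gm42418, AY036118, Ttr and Hbb-bs, described next), and not Spp1, Dbp, Hdgf, Nr4a1 or Casq2. Dbp and Nr4a1 were not called when any 1 of the 4 libraries was left out, and without the first WT library 8 genes were called.

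Several of these calls moved in the same way in capillary pericytes or with markers of other cells. Gm42418, an annotated transcript without a protein product, was 53320 and 56104 CPM in Tek-Cre:Lama5-/- members and 28694 and 28749 CPM in WT, and 51943 and 54799 CPM and 26562 and 29811 CPM in pericytes. It overlaps AY036118, which was also called, so reads of the pair are uncertain. Ttr, the defining gene of choroid plexus, was 211 and 94.9 CPM in Tek-Cre:Lama5-/- members and had no UMI in WT, at least 17.9-fold higher against 3 counts over the WT group. In pericytes Ttr was 132 and 122 CPM and again had no UMI in WT. Hbb-bs, a globin of red cells, was 49.7 and 61.0 CPM in members against 333 and 389 CPM in WT. The part of choroid plexus and red-cell RNA in these calls was not tested. The difference of the Lama5 effect between members and pericytes was called by edgeR for 4 of 4640 genes (0.0862%), all of them globins, and for 0 without the second Tek-Cre:Lama5-/- library (edgeR, 213 at an unadjusted p under 0.05) or by DESeq2. In the pericytes of that library Hbb-bs was 8322 CPM, against 49.1 CPM in the other.

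For Lama4-/- there was 1 library and no test. Genes were named where the level was at least 50 CPM in the higher group, at least 2-fold from both WT libraries and with Poisson intervals apart, which 11 of 4250 genes met (0.259%), 6 higher (0.141%) and 5 lower (0.118%). Lama4 itself, at 0, was among the lower genes. Gem, a small GTPase, was 5.26 CPM in Lama4-/- and 163 and 57.6 CPM in WT, and Carmil1, an actin regulator, 42.1 against 124 and 189 CPM. Nts, neurotensin, was 52.6 against 170 and 148 CPM. Parm1 was 121 against 42.5 and 28.8 CPM, and the mitochondrial carrier Slc25a25 was 84.2 against 21.2 and 12.3 CPM. Ttr was 2110.2 CPM against 273 and 214 CPM, and in Lama4-/- pericytes 12528 CPM, so a choroid plexus transcript was high in both. Enpp2, which choroid plexus also makes, was 195 against 49.6 and 65.9 CPM in members and 736 CPM in Lama4-/- pericytes. The summed choroid plexus markers were 2358 CPM in Lama4-/- members and 284 and 326 CPM in WT, and their part in these values was not tested. With 1 of the WT libraries alone as the control, 66 or 50 genes met the rule.

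The share of Ifitm1-high cells among Vtn mural cells was compared between genotypes, with intervals that cover counting error only and do not test genotype. It was 36% (interval 28.6 to 43.8) and 38.8% (31.6 to 46.3) in WT of the Lama5 experiment and 36% (29.1 to 43.4) and 38.0% (31.1 to 45.3) in Tek-Cre:Lama5-/-. The difference was -0.349 percentage points (two-sided exact permutation p = 1.0000, where 0.3333 is the smallest possible). It was -3.39 points with the sum at 20 CP10k or more, -4.79 with at least 3 UMIs of both genes, -5.42 in cells of at least 2000 UMIs and -5.60 after thinning those to 2000, and -1.74 to 1.05 with 1 library left out. In WT of the Lama4 experiment it was 31.2% (25.7 to 37.1) and 30.0% (24.2 to 36.2), and in Lama4-/- 26.6% (20.7 to 33.1), a difference of -4.01 points from the WT mean with no test for 1 library. That direction turned with cells thinned to 2000 UMIs, where Lama4-/- was 5.09 points above.

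**Figure D4:**
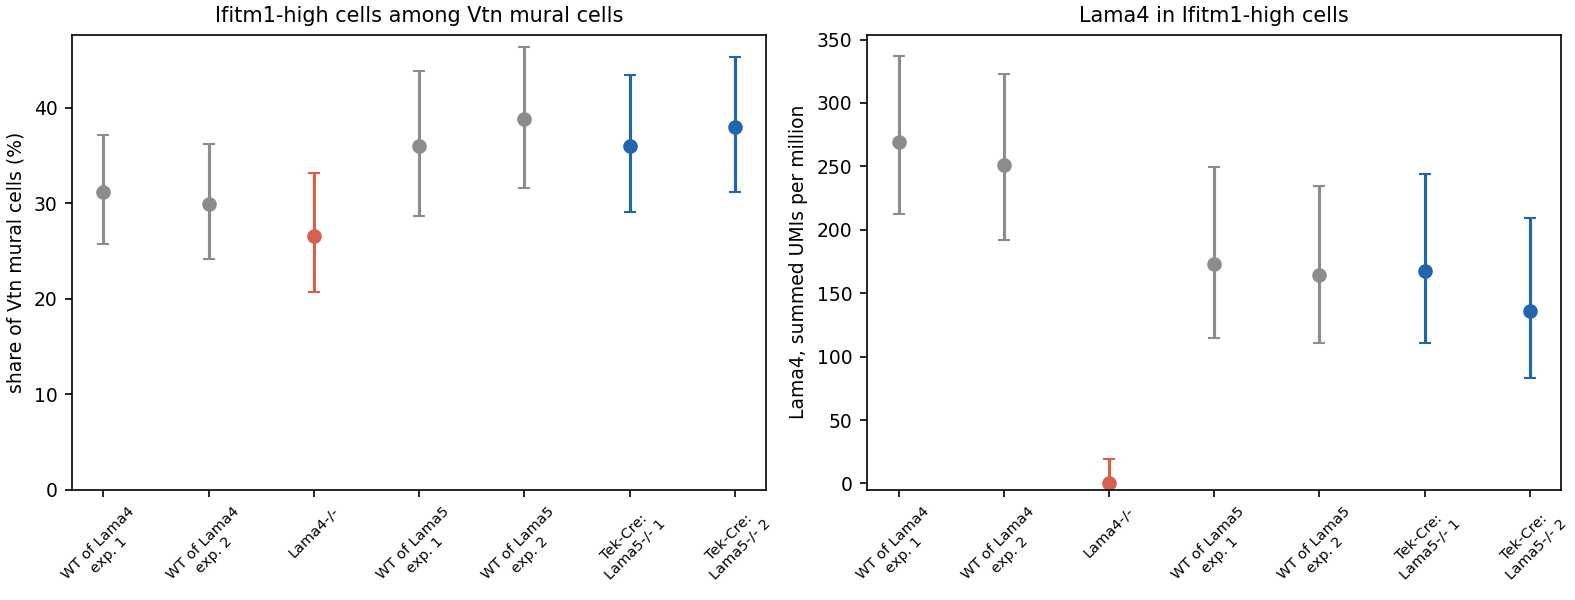
Left, Ifitm1-high cells as a percent of Vtn mural cells by library, with exact 95% binomial intervals, from 26.6% to 38.8%. Right, Lama4 in Ifitm1-high cells (CPM) with exact 95% Poisson intervals, at 0 in Lama4-/- and at 136 to 269 in the other 6 libraries.

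The WT groups of the experiments also differed from each other in these cells. Of 4126 genes tested, edgeR called 167 (4.05%), 121 higher (2.93%) and 46 lower (1.11%) in WT of the Lama5 experiment. Of 10 heat shock genes 8 were higher, among them Hspb1, a small chaperone, at 3918 and 4397 CPM against 708 and 799 CPM (log2 difference 2.49, edgeR adjusted p = 3.94e-07). Of 15 immediate early genes 6 were higher, with Atf3 at 3.30 and Jun at 2.40 in log2. The matrix-bound Igfbp7 fell by 0.49, while none of 20 pericyte identity genes was called by edgeR (8 at an unadjusted p under 0.05) or DESeq2. Id1 and Smad7, both BMP or TGF-beta targets, rose by 2.49 and 2.67, and the Notch targets Nrarp and Hes1 by 1.94 and 1.24. These groups came from different pools of mice, so genotype effects were compared only within an experiment.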

How the data were processed

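Cortex cells were captured with the 10x Genomics 3′ method and deposited by the authors as UMI counts per gene and barcode, made with Cell Ranger on mm10, per the submitters' processing notes. The members, gene lists and tests were chosen with earlier results of these data known. Counts of the cells of a class were summed per library and tested in edgeR 4.0.16 (R 4.3.3: filterByExpr, TMM, quasi-likelihood F test, Benjamini-Hochberg adjusted p under 0.05 over all genes tested), with the library as a block between classes of the same libraries. CPM values are summed UMIs over the total, without further scaling. Genes of the rule and the listed markers were fitted and given no test. Class comparisons name the called genes of at least 50 CPM with the same direction in every library, the 12 largest each way against pericytes and 6 against smooth muscle. For Tek-Cre:Lama5-/- all called genes up to the 10 largest each way are eligible, for Lama4-/- those of the size rule, and for each list up to 4 examples. Some called genes stand in the counts and are not reported here. No doublet caller was run. A doublet gate, as an alternative, removed 10 members (0 to 3 per library) and 2 to 11 capillary pericytes per library. With it, 11 genes were called lower against pericytes, beside 27 without it. Other alternatives were DESeq2 1.42.0, RLE factors, no low-count filter, other thresholds, thinning, single libraries left out and a replicate block. Leaving out the 39 cells and comparing the experiments were added after seeing the data. Exact intervals (SciPy 1.17.1) cover counting error only. On simulated counts for the comparison with pericytes (5870 genes), 97% of genes changed 2-fold and 100% of those changed 4-fold were recovered. For the Lama5 comparison (3042 genes) these were 55% and 92%. False calls numbered 13 and 8. Only genes of at least 50 CPM were changed, and no library differences or signals from few cells were simulated. These shares therefore need not hold for the measured counts. Fibroblasts, at 35 cells, were too few to compare.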

Additional observations from a re-analysis of the deposited data

Results flagged for a closer look

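The Lama5 effect, as the log2 difference of Tek-Cre:Lama5-/- and WT, differed between Ifitm1-high cells and capillary pericytes for 4 globin genes by edgeR's interaction test: Hbb-bt by -6.07, Hbb-bs by -5.85, Hba-a1 by -4.99 and Hba-a2 by -7.54. Beside these values, the summed erythrocyte genes in pericytes were 14358 CPM in the second Tek-Cre:Lama5-/- library and 79.3 CPM in the first. Without the second library 0 genes were called.

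The difference between Ifitm1-high cells and capillary pericytes was itself different between experiments (Lama5 experiment minus Lama4 experiment, log2, edgeR) for 32 genes. Among genes of immediate early and stress responses the values were -1.75 for Jun, -0.93 for Jund, -1.62 for Junb, -1.64 for Fos, -1.22 for Fosb, -1.30 for Egr1, -1.44 for Atf3, -0.90 for Btg2, -1.19 for Klf6, -1.15 for Dusp1, -2.29 for Zfp36, -1.25 for Ppp1r15a, -2.16 for Gadd45b, -2.36 for Socs3 and -1.65 for Cyr61. The transcription factors Cebpb and Cebpd had -1.42 and -0.96, the heat shock genes Hspa1a and Hspa1b -1.38 and -1.76, and the metallothionein Mt1 -2.33. Ccl2 had -3.98, Rgs16 -3.41, Gem -2.90, the BMP target Id3 -2.19, the kinase inhibitor Errfi1 -1.73, Txnip -1.18, the intermediate filament gene Des -1.19, Gm13889 -0.94 and Timp3 -0.90. The ribosomal protein gene Rpl22 had -0.79. Slf2 was the gene with the opposite sign, at 2.01. With the 39 cells that carry at least 4 of the 14 raised genes, and 9 such pericytes, left out, edgeR called 0 genes (275 at an unadjusted p under 0.05). Since these cells were picked for genes higher in members, leaving them out lowers such differences in part by construction. Of the 39 cells, 19 were in the first WT library of the Lama4 experiment.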

How the results depend on the processing

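Counts of called genes depended on the settings, and the cause was not tested except where fewer samples or cells were used. Against capillary pericytes (77 calls) DESeq2 called 15, no low-count filter 146, a sum of at least 20 CP10k 130, the doublet gate 46, pericytes with no Col3a1 or Ifitm1 UMI 176, no library block 3, cells thinned to 2000 UMIs 19, the Lama4 experiment alone 136, the Lama5 experiment alone 16, and leaving out cells with 4 or more raised genes 37. Leaving out 1 library each gave 41 to 99. The sign turned for Socs3 (-0.13, raised-gene cells left out), Enpp2 (0.11) and Clu (0.20) with the doublet gate, Txn1 (-0.078), Bcr (-0.070) and Cryab (-0.057) with thinning, and Errfi1 (-0.081, Lama5 experiment alone). Against smooth muscle cells (3735 calls), 1475 were called with Vtn-positive smooth muscle cells and 3306 to 3601 with 1 library left out.

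For Tek-Cre:Lama5-/- (14 calls) DESeq2 called 4, a sum of at least 20 CP10k 3, the doublet gate 29, under 10% mitochondrial UMIs 29, at least 3 UMIs of Col3a1 and Ifitm1 24, and leaving out 1 library each 8 to 18. With the replicate block 32 genes were called (19 higher, 13 lower), but same-numbered libraries shared only a number, with a correlation of 0.00883 between their deviations. The difference of that effect from pericytes (4 calls) gave 0 with DESeq2 (6 at an unadjusted p under 0.05) and 0 in edgeR with the doublet gate (230), 7 with no filter, with 20 CP10k and with under 10% mitochondrial UMIs, and 0 to 6 with 1 library left out. Hbb-bt turned to 1.42, Hbb-bs to 0.33 and Hba-a1 to 1.42 with the doublet gate, and with 1 library left out ranged from -11.33 to 1.45, -6.85 to 0.31 and -6.21 to 2.27, positive without the second Tek-Cre:Lama5-/- library.

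Between WT groups (167 calls) DESeq2 called 57, no filter 270, 20 CP10k 73, the replicate block 256, leaving out raised-gene cells 359, and leaving out 1 library each 125 to 258. For the difference between experiments (32 calls) DESeq2 called 5 and 1 library left out gave 13 to 54. With raised-gene cells left out edgeR called 0 (275 at an unadjusted p under 0.05), and the sign turned for Atf3 (0.58), Cyr61 (0.44), Timp3 (0.051), Junb (0.027), Mt1 (0.22), Socs3 (0.11) and Hspa1a (0.085). This setting lowers such differences in part by construction. For Lama4-/- 7 genes met the size rule at 20 CP10k, and 50 to 66 with 1 WT library left out.

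The Lama5 difference in share (-0.349 points) was -3.39 at 20 CP10k, -5.60 with thinning, -4.79 with at least 3 UMIs, -5.42 in cells of at least 2000 UMIs, 0.0792 as a share of all cells kept, and -1.74 to 1.05 with 1 library left out (0.651 without the first Tek-Cre:Lama5-/- library). The Lama4 difference (-4.01 points) was -2.90, 5.09 with thinning, -2.57 in cells of at least 2000 UMIs, -0.381 of all cells kept, and -4.63 to -3.39 with 1 WT library left out. The comparison with fibroblasts was not run, since 1 library alone held at least 10 of the 35. Depth limits genes under about 10 CPM, where a library holds 1 or 2 UMIs.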
